A study of Rattus norvegicus with 12 samples.

Results

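The calcium cycling genes of cardiomyocytes were taken as 10 genes named by symbol, Atp2a2, Pln, Sln, Ryr2, Casq2, Trdn, Jph2, Cacna1c, Slc8a1 and Camk2d. Of these, 9 could be followed among the 30560 genes listed, all 9 had enough counts to be tested, and Pln was not analysed here. They were measured by RNA sequencing in formalin-fixed, paraffin-embedded sections of the left ventricle of 12 male Wistar rats, with 1 library per rat and 4 rats per group. In the Sham group the chest was opened without a suture around the coronary artery. In the MI group the left anterior descending coronary artery was tied off permanently to cause an infarction. The rats of the MI + UA group had the same ligation and received urolithin A, a compound made by gut bacteria from ellagitannins and studied as an inducer of mitophagy, whereas the Sham and MI rats received the vehicle, 0.5% carboxymethylcellulose. All rats were 7 weeks old at surgery, and gavage was daily for 8 weeks from 24 h after surgery. The design text puts the dose at 50 mg/ml, although the sources differ on the dose and on the day treatment began. Rat 66 carries the label MI + UA, but the study's echocardiography records place it among the rats that received vehicle after MI, and it was kept here with its label. The sections, 20 µm thick, came from the middle of the ventricle, and every value is therefore an average over all cell types of a whole transverse slice, scarred and surviving muscle together.

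With each heartbeat, calcium enters the cardiomyocyte through L-type channels and opens the ryanodine receptors of the sarcoplasmic reticulum (SR), whose stored calcium then starts contraction. The muscle relaxes as the pump SERCA2 returns calcium to the SR and the sodium-calcium exchanger moves the rest out of the cell. Phospholamban and sarcolipin restrain the pump, calsequestrin buffers the store, triadin and junctophilin hold the release site together, and the kinase CaMKII tunes several of these proteins, and loss of SERCA2 activity is a long-known feature of the failing heart.

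Each Sham library had between 6228706 and 8958828 reads on genes, each MI library between 6829591 and 12743184 and each MI + UA library between 6819444 and 19031695. Mitochondrially encoded genes made up 50.2% to 58.6% of these reads. Of all counted reads, 50.4% to 53.4% fell on genes in Sham, 47.6% to 49.8% in MI and 46.2% to 50.8% in MI + UA. The share was therefore lower in each MI rat than in each Sham rat, and its part in the results below was not tested. The tissue label was checked against cardiomyocyte markers, of which Myh6 had between 15490 and 75047 counts per library. Levels are given as CPM (counts scaled to the library size after TMM), which are not divided by gene length, so no level is compared between genes. Differences are log2 fold changes with their standard error (SE), from edgeR's quasi-likelihood test over 18182 genes with Benjamini-Hochberg adjusted p-values, and a gene is called where the adjusted p is under 0.05.

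The transcripts of the SR pump, of the release channel and its partners triadin and junctophilin, and of the L-type channel were lower in MI than in Sham, relative to all RNA of the section. Between MI and Sham, 5 of the 9 calcium cycling genes were called, Atp2a2, Ryr2, Trdn, Jph2 and Cacna1c, each of them lower in MI, where 11.4% of all genes tested were called and 5.53% were called lower. All 9 had a negative log2 fold change, with a median of -0.41, against 0.03 over all genes tested. Casq2 also lay lower in every MI rat than in every Sham rat without being called, so 6 of the 9 genes did not overlap between the groups, against 15.7% of all genes tested (7.56% for lower alone) and 20.8% of those with an average log2 CPM of at least 1. Slc8a1, Camk2d and Sln were not called and overlapped. In MI tissue fewer cardiomyocytes and less RNA of these genes in each cardiomyocyte cannot be told apart.

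**Figure D1:**
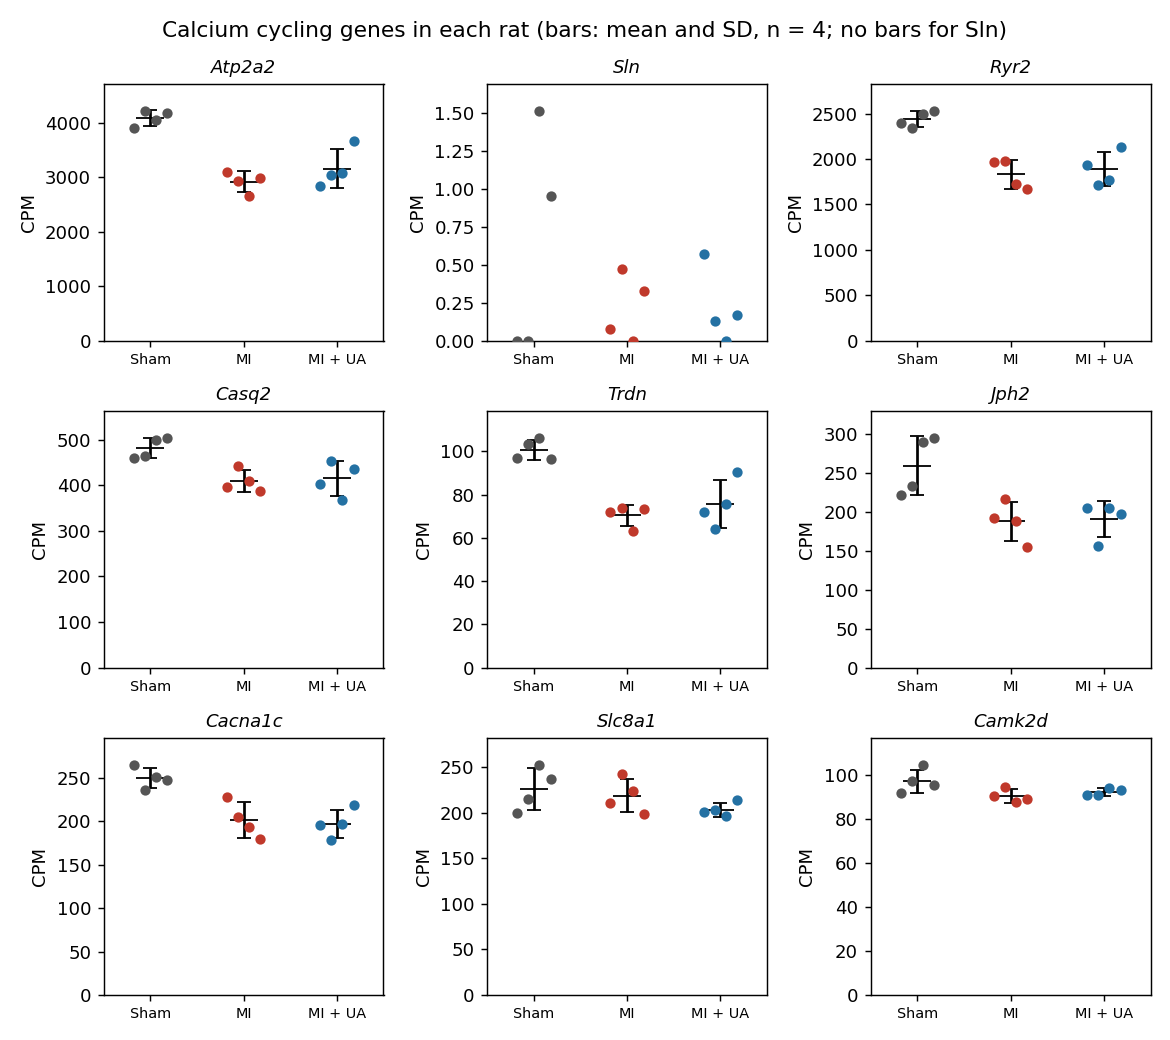
Level of each calcium cycling gene in each of the 12 rats, in CPM on axes that start at 0, by group (Sham, MI and MI + UA, 4 rats each); bars give the mean and SD, with none for Sln. For Atp2a2, Ryr2, Trdn, Jph2, Cacna1c and Casq2 all 4 Sham rats sit above all MI and all MI + UA rats, whereas for Slc8a1 and Camk2d the 3 groups overlap.

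Atp2a2 (ENSRNOG00000001285) encodes SERCA2, the pump that refills the SR. Its level was 3904, 4220, 4058 and 4193 CPM in the Sham rats 12, 17, 32 and 38, and 3106, 2941, 2657 and 2985 CPM in the MI rats 36, 57, 61 and 89. The MI + UA rats 29, 58, 64 and 66 had 2841, 3040, 3083 and 3677 CPM. The lowest Sham rat stood above the highest rat of either infarcted group, and within MI + UA rat 66 was the highest. The mean was 4094 ± 145 CPM in Sham and 2922 ± 190 CPM in MI (SD, n = 4 each), a log2 fold change of -0.49 (SE 0.085, edgeR adjusted p = 0.000694). This call held in each of the 12 fits that left out 1 rat, with a largest adjusted p of 0.00487.

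Of the small proteins that restrain the pump, sarcolipin was hardly seen. Sln (ENSRNOG00000009047), which is known mainly from atrial and skeletal muscle, had 39 counts in all 12 libraries together. The Sham rats had 0, 0, 9 and 8 counts, the MI rats 1, 3, 0 and 4, and the MI + UA rats 10, 1, 0 and 3. In the 4 libraries at 0, the limit that a count of 0 allows (3 counts) lay at 0.376 and 0.433 CPM in Sham, 0.311 CPM in MI and 0.406 CPM in MI + UA, for counting error only. The interval of the log2 fold change between MI and Sham ran from -3.71 to 0.63 (edgeR adjusted p = 0.404), so a change of Sln was not detectable at this depth. The atria had been cut away before embedding, and of 6 atrial markers Myl4 had between 1 and 22 counts per library and Bmp10 between 0 and 10. Myl7 had 9 to 128 counts, Kcna5 27 to 149, Kcnj3 302 to 1405 and Dkk3 548 to 2201, and the 6 together summed to between 166 and 202 CPM. Between MI and Sham the atrial markers had a median log2 fold change of 0.67, with 5 of the 6 positive.

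Of the genes of the release complex, Ryr2, Trdn and Jph2 fell and Casq2 was not called. Ryr2 (ENSRNOG00000017060) encodes the cardiac ryanodine receptor, through which the SR releases its calcium. It had 2398, 2341, 2493 and 2528 CPM in the Sham rats, 1970, 1974, 1721 and 1673 CPM in the MI rats, and 1931, 1715, 1774 and 2135 CPM in the MI + UA rats. No rat of an infarcted group reached the lowest Sham rat, and the difference between MI and Sham was -0.41 on the log2 scale (SE 0.085, edgeR adjusted p = 0.00275).

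Triadin, encoded by Trdn (ENSRNOG00000012609), anchors calsequestrin to the ryanodine receptor. Trdn had 97.0, 103, 106 and 96.3 CPM in Sham, 71.8, 73.7, 63.2 and 73.2 CPM in MI, and 72.0, 63.96, 75.7 and 90.4 CPM in MI + UA. It had the steepest fall of the 5 genes called, from 101 ± 4.75 CPM to 70.5 ± 4.92 CPM (SD, n = 4 each), a log2 fold change of -0.51 (SE 0.096, edgeR adjusted p = 0.00123). As for Atp2a2, every Sham rat lay above all infarcted rats, and rat 66 was the highest of the MI + UA rats.

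Jph2 (ENSRNOG00000008170) encodes junctophilin, which ties the SR to the cell membrane at the release site. It varied more than the other 4 called genes in Sham and MI, though not in MI + UA, with 221, 234, 290 and 295 CPM in Sham, 192, 217, 188 and 155 CPM in MI and 205, 157, 206 and 198 CPM in MI + UA. The SD of its log2 CPM in Sham was 0.21, against 0.05 to 0.07 for the other 4, and the lowest Sham rat (221 CPM) and the highest MI rat (217 CPM) nearly met. The log2 fold change was -0.47 (SE 0.114, edgeR adjusted p = 0.00962). Jph2 stayed called in each of the 12 fits that left out 1 rat, but only just without Sham rat 38 (edgeR adjusted p = 0.0485).

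Casq2 (ENSRNOG00000016243) encodes cardiac calsequestrin, the calcium buffer inside the SR. Its 4 Sham rats had 461, 463, 498 and 503 CPM, its MI rats 396, 443, 410 and 387 CPM, and its MI + UA rats 403, 454, 368 and 436 CPM. Every Sham rat was again above every rat of the infarcted groups, but the difference was smaller than for its partners, with a log2 fold change of -0.24 between MI and Sham (SE 0.080, interval from -0.40 to -0.07, edgeR adjusted p = 0.0649). This result depended on the fit. The adjusted p was 0.0190 by DESeq2, 0.0282 in edgeR on the Sham and MI rats alone, and 0.0395 without MI rat 57.

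Among genes of the cell membrane, the transcript of the channel through which calcium enters was lower in MI, relative to all RNA of the section. A fall of the transcript of the exchanger that removes calcium was not detected. Cacna1c (ENSRNOG00000007090) encodes the pore of the L-type calcium channel. It had 265, 236, 251 and 248 CPM in Sham, 228, 205, 194 and 180 CPM in MI and 195, 179, 197 and 219 CPM in MI + UA. Although the groups did not overlap, the log2 fold change of -0.31 between MI and Sham (SE 0.086, edgeR adjusted p = 0.0218) was the smallest of the 5 calls. It was not called without Sham rat 12 (adjusted p = 0.0610), without Sham rat 32 (0.0549), without MI rat 61 (0.0687) or without MI rat 89 (0.0893), by the same edgeR test.

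Slc8a1 (ENSRNOG00000008479) encodes the sodium-calcium exchanger. It had 199, 215, 252 and 237 CPM in the Sham rats and 211, 242, 224 and 199 CPM in the MI rats, and the MI + UA rats had 200, 202, 196 and 214 CPM. The Sham and MI rats covered nearly the same range. The log2 fold change was -0.05 (SE 0.085, edgeR adjusted p = 0.809), and its 95% interval, from -0.22 to 0.13, left out a fall as large as that estimated for Atp2a2.

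Camk2d (ENSRNOG00000011589) encodes the delta subunit of CaMKII, the main form of this kinase in heart. Its level was 97.4 ± 5.27 CPM in Sham, 90.6 ± 3.11 CPM in MI and 92.4 ± 1.78 CPM in MI + UA (SD, n = 4 each). The lowest Sham rat (92.0 CPM) lay below the highest MI rat (94.9 CPM), and the log2 fold change was -0.11 with an interval from -0.26 to 0.05 (edgeR adjusted p = 0.421).

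**Figure D2:**
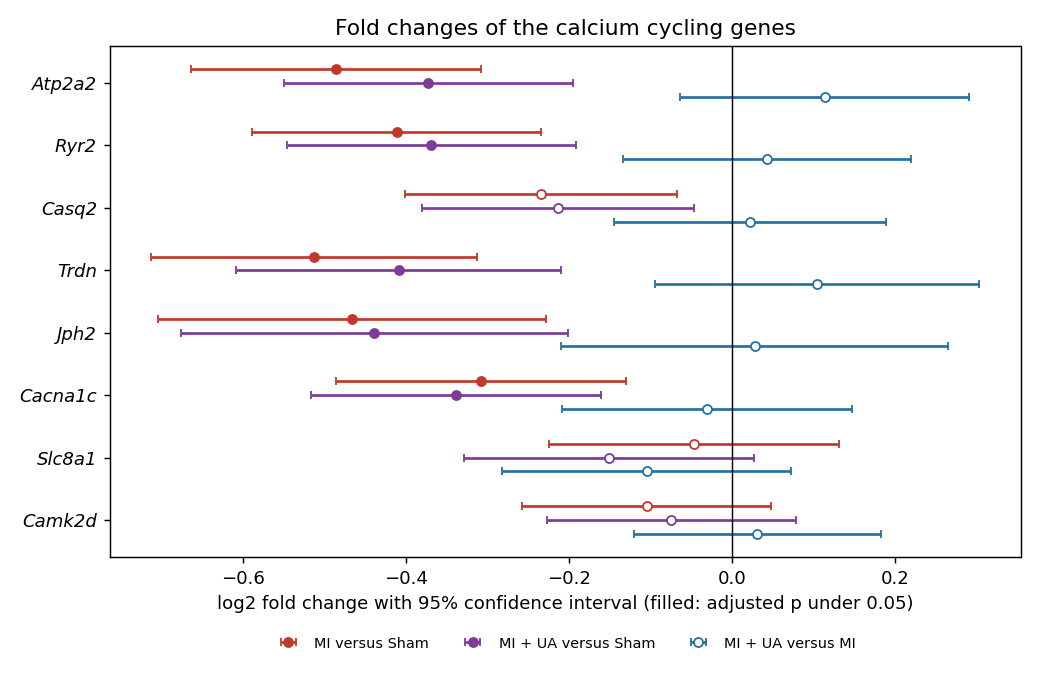
Log2 fold change of 8 calcium cycling genes with its 95% confidence interval in MI versus Sham, MI + UA versus MI and MI + UA versus Sham, from edgeR with 4 rats per group and with called genes filled; Sln, with 39 counts in all, is not drawn. The intervals of Atp2a2, Ryr2, Trdn, Jph2, Casq2 and Cacna1c lie below 0 in both comparisons with Sham and include 0 in MI + UA versus MI.

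To set extrusion against uptake, Slc8a1 reads were counted per Atp2a2 read within each rat, where depth and scaling cancel. The ratio restates the unequal fold changes of these genes and is no independent support for them. For every 100 Atp2a2 reads there were 5.10, 5.10, 6.20 and 5.66 Slc8a1 reads in the Sham rats. In the MI rats there were 6.78, 8.22, 8.42 and 6.66, and in the MI + UA rats 7.06, 6.66, 6.35 and 5.81. Each MI rat was above each Sham rat, and the MI + UA rats overlapped both groups. Rat 66, with 5.81, lay below Sham rat 32, with 6.20, so Sham and MI would overlap if that rat were counted in MI. The mean was 5.51 ± 0.528 in Sham, 7.52 ± 0.928 in MI and 6.47 ± 0.527 in MI + UA (SD, n = 4 each), given as a description without a test.

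The other pairs moved less. Casq2 reads per 100 Ryr2 reads ran from 19.2 to 20.0 in Sham, from 20.1 to 23.8 in MI and from 20.4 to 26.5 in MI + UA. Sham thus lay below both infarcted groups, though only just, as 20.0 and 20.1 are nearly equal. Within the release site and the channel the proportions overlapped between all groups, with 3.81 to 4.41 Trdn reads per 100 Ryr2 reads in Sham and 3.65 to 4.38 in MI, and 83.7 to 119 Jph2 reads per 100 Cacna1c reads in Sham and 84.4 to 106 in MI. Reads of Ryr2 per 100 Cacna1c reads ran from 906 to 1020 in Sham and from 865 to 961 in MI.

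**Figure D3:**
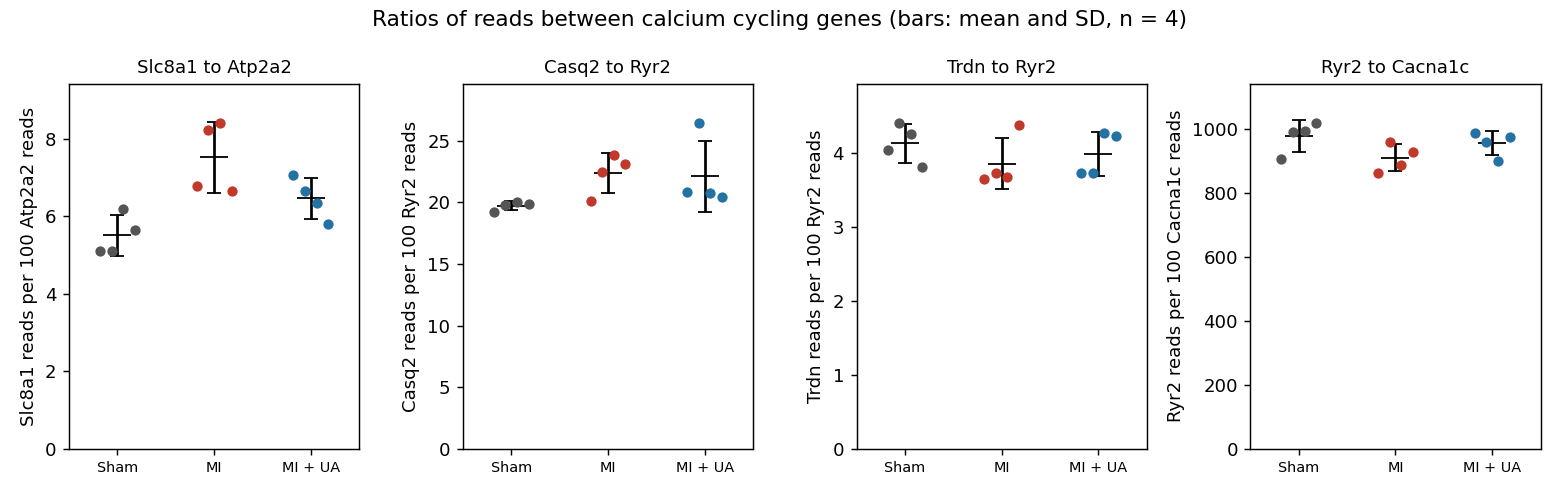
Reads of one calcium cycling gene per 100 reads of another in each of the 12 rats, by group, with the mean and SD of 4 rats. For Slc8a1 against Atp2a2 and for Casq2 against Ryr2 the 4 MI rats lie above the 4 Sham rats, and for Trdn against Ryr2 and Ryr2 against Cacna1c they overlap.

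The 250 bases before the start sites of the pump, the release channel and the exchanger are shown to set the promoters of 2 genes that fell in MI beside that of 1 gene that was not called. They come from RefSeq on the build GRCr8, whereas the counts were made on mRatBN7.2, and each is written 5′ to 3′ along the strand of its gene. Capitals mark the letters GGGCGG, the core of the GC box, or its reverse complement.
Atp2a2 promoter, GRCr8 chr12:39733269-39733518, + strand: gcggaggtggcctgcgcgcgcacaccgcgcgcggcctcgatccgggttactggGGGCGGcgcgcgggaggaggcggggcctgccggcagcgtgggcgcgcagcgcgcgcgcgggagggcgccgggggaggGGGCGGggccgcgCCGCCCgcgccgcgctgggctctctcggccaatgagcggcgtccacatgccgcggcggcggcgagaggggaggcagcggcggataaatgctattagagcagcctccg
Ryr2 promoter, GRCr8 chr17:63081277-63081526, + strand: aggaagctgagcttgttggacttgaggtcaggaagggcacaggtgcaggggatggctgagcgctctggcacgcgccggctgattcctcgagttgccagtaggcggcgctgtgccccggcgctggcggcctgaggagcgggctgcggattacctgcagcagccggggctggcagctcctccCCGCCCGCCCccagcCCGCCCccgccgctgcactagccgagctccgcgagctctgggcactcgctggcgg
Slc8a1 promoter, GRCr8 chr6:19023309-19023558, + strand: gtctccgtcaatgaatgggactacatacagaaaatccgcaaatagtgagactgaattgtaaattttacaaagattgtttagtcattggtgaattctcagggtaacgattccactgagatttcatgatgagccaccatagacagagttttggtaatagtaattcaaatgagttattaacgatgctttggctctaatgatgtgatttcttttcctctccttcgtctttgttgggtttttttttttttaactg
The bases G and C made up 80% of the Atp2a2 promoter and 72% of that of Ryr2, with 3 matches each, against 35.2% and 0 matches for Slc8a1. The contrast did not run along the calls, as the called genes Trdn (44%), Cacna1c (54.4%) and Jph2 (57.2%) had 0 matches each and the uncalled Camk2d had 75.2%. RefSeq entries were matched for 9 of the 10 genes, all but Sln. The GC box letters were in 3 of these 9, the other being Camk2d, which also had 3 matches and was not called in MI versus Sham. Among 33469 rat promoters of this length, 30.5% held the same letters on either strand. The letters CANNTG, the E box, were in 6 of the 9 and in 65.5% of all promoters. The letters CCAAT, read on both strands as well, were in 4 of the 9 and in 34% of all, and TATAAA was in 0 of the 9 and in 12.9% of all. The letters alone mark no binding site.

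Most of the cardiomyocyte markers examined were also lower in MI. Of 15 sarcomere and other cardiomyocyte markers, none of them among the calcium cycling genes, 15 had a negative log2 fold change between MI and Sham and 13 were called lower, with a median of -0.43. Myh6, the main myosin heavy chain of the adult rat ventricle, fell by 1.08 on the log2 scale. Summed over the 15 markers, the level ran from 53228 to 60665 CPM in Sham, from 37968 to 44455 CPM in MI and from 39414 to 51063 CPM in MI + UA.

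Markers of scar and immune cells moved the other way. Of 9 fibroblast markers 7 were called higher in MI (median log2 fold change 1.26), and their summed level was 1189 to 1495 CPM in Sham against 2316 to 4018 CPM in MI. Of 9 macrophage markers 8 were called higher (median 0.93), with sums of 129 to 163 CPM in Sham and 261 to 417 CPM in MI. In MI + UA the sums were 2383 to 4127 CPM for fibroblast and 219 to 444 CPM for macrophage markers.

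Other cell types showed smaller shifts. Of 6 smooth muscle markers 3 were called higher in MI, with sums of 231 to 258 CPM in Sham and 240 to 386 CPM in MI, and of 7 endothelial markers 1 was called lower, with 698 to 816 CPM in Sham and 627 to 746 CPM in MI. Of 6 atrial markers 1 was called higher and 1 lower, with 166 to 192 CPM in Sham and 173 to 199 CPM in MI. Of 6 skeletal muscle markers tested 1 was called higher, with 13.57 to 17.002 CPM in Sham and 17.1 to 29.3 CPM in MI. Of these 6, 5 had a positive log2 fold change, with a median of 0.48. Tnnt3 had 49 to 256 counts per library and Mybpc2 24 to 106. Myh4 and Tnnc2 had too few counts to be tested, and were at 0 in most libraries and in all Sham libraries. The part of these shifts in the fall of the calcium cycling genes was not tested.

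Setting each library's size to the summed counts of the 15 cardiomyocyte markers instead gave the calcium cycling genes relative to these markers. On this scale the median log2 fold change of all genes between MI and Sham was 0.51. Ttn had the most marker counts in every library (289082 in Sham rat 12, where Myh6 had 47617). Its log2 fold change with TMM scaling was -0.45. A gene that fell about as much as the summed markers must therefore come near 0. The falls were then gone. The log2 fold change was -0.0037 for Atp2a2 (edgeR adjusted p = 0.978), -0.03 for Trdn (0.825), 0.02 for Jph2 (0.898), 0.07 for Ryr2 (0.461) and 0.17 for Cacna1c (0.139). On the same scale 3 of the 9 were called higher in MI, as were 41.4% of all genes tested. They were Slc8a1 with a log2 fold change of 0.44 (edgeR adjusted p = 0.00140), Camk2d with 0.38 (0.00619) and Casq2 with 0.25 (0.0375). All 3 lay below the shift of the median gene. The order of the genes was the one seen with TMM scaling, with Atp2a2 and Trdn at the low end (Sln aside) and Slc8a1 and Camk2d at the high end, as a common scaling factor must leave it.

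**Figure D4:**
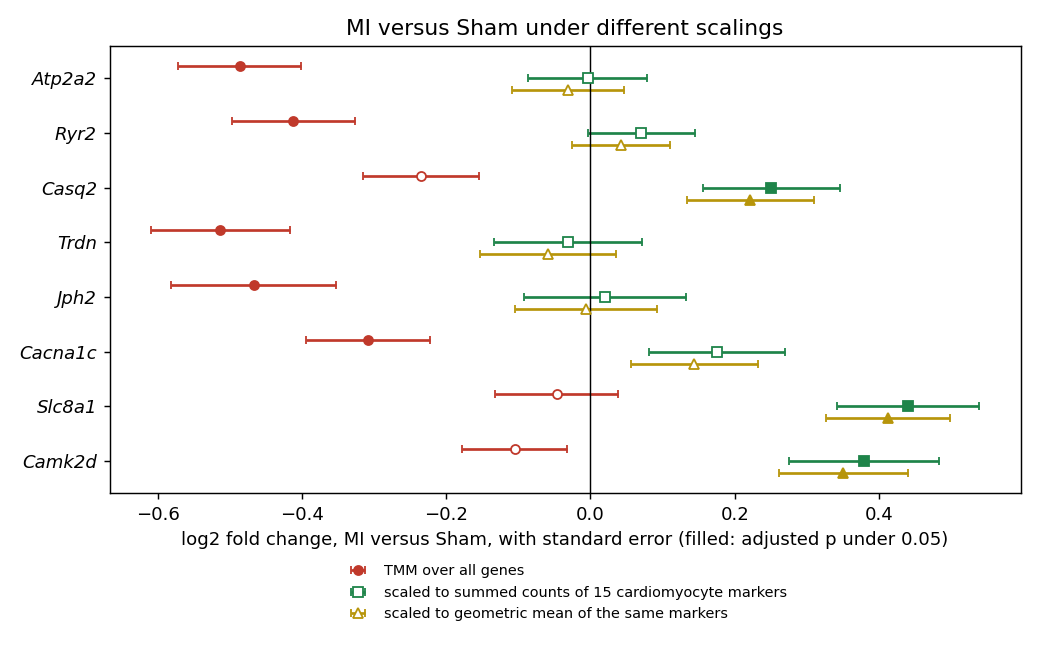
Log2 fold change of 8 calcium cycling genes (Sln is not drawn) between MI and Sham with its SE, under TMM scaling and with library sizes set to the sum or the geometric mean of the 15 cardiomyocyte markers; called genes are filled. With the sum, Atp2a2 moves from -0.49 to -0.0037 and Slc8a1 from -0.05 to 0.44, beside a median over all genes of 0.03 and 0.51.

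Between MI + UA and MI the comparison asks whether urolithin A altered these genes in infarcted hearts. Of the 9 calcium cycling genes 0 were called, by edgeR as by DESeq2, and 0 had an unadjusted p under 0.05, where 0% of all genes tested were called and 3.79% had an unadjusted p under 0.05. Of the 9, 7 had a positive and 2 a negative log2 fold change, with a median of 0.03. None had groups that did not overlap, against 2.34% of all genes tested. Atp2a2 had the largest positive difference apart from Sln, from 2922 ± 190 CPM to 3160 ± 361 CPM (SD, n = 4 each), a log2 fold change of 0.11 with a 95% interval from -0.06 to 0.29 (edgeR adjusted p = 1.00). Its MI + UA rats were higher in 11 of the 16 pairs with MI rats. The log2 fold change was 0.10 for Trdn (interval from -0.10 to 0.30), 0.04 for Ryr2 (from -0.13 to 0.22), 0.03 for Jph2 (from -0.21 to 0.26) and 0.02 for Casq2 (from -0.15 to 0.19).

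At the membrane the estimates were -0.11 for Slc8a1 (interval from -0.28 to 0.07) and -0.03 for Cacna1c (from -0.21 to 0.15), and Camk2d had 0.03 (from -0.12 to 0.18). With 4 rats per group these intervals reach as far as 0.30 on the log2 scale, and do not show that the genes were alike in MI + UA and MI. The positive values of Atp2a2, Ryr2, Trdn, Jph2 and Casq2 changed sign with rat 66, whose group the sources give differently, counted in MI. They then became -0.04, -0.07, -0.08, -0.0030 and -0.02. Without rat 66 altogether the value of Atp2a2 was 0.032 and that of Trdn 0.0021, without MI rat 61 they were 0.070 and 0.055, and over all 12 fits that left out 1 rat they reached 0.16 (without MI + UA rat 29) and 0.17 (without MI + UA rat 58).

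Set against Sham, the MI + UA hearts had the same 5 genes called lower, with the Sham rats shared between this comparison and that of MI with Sham. The background was 9.44% of all genes tested called in either direction and 4.27% called lower. The log2 fold change was -0.37 for Atp2a2 (edgeR adjusted p = 0.00728), -0.37 for Ryr2 (0.00771), -0.41 for Trdn (0.00843), -0.44 for Jph2 (0.0169) and -0.34 for Cacna1c (0.0141). Of the 9 genes 6 did not overlap, against 14.3% of all genes tested (6.46% for lower alone), and the sixth was again Casq2, at -0.21 (adjusted p = 0.106). Jph2 was not called without Sham rat 32 (0.0707), Sham rat 38 (0.0778) or MI + UA rat 58 (0.0621), the rat with the lowest Jph2 of its group. Slc8a1 (-0.15, adjusted p = 0.319) and Camk2d (-0.07, adjusted p = 0.617) were not called. Relative to the cardiomyocyte markers none of the 5 was called, where 29.8% of all genes tested were called higher, Camk2d alone of the 9 was, with a log2 fold change of 0.33 (edgeR adjusted p = 0.0200).

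The wider calcium machinery was less uniform than these genes. Of 76 further calcium handling genes listed by role, 70 could be tested, and in MI versus Sham 6 were called higher and 9 lower, or 15 of 70 beside 11.4% of all genes tested. Their median log2 fold change was -0.04. Without MI rat 61, 8 were called, 2 higher and 6 lower. All 9 that fell lost that call relative to the cardiomyocyte markers, where 35 of the 70 were called, each of them higher, beside 41.4% of all genes tested.

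Around the channels, 3 of 10 further subunits and regulators were called higher and 1 lower. Cacna1g, the pore of a T-type channel that is abundant in the fetal ventricle, rose from 12.1 ± 3.15 CPM in Sham to 25.9 ± 3.88 CPM in MI (SD, n = 4 each), a log2 fold change of 1.09 (edgeR adjusted p = 0.000461) without overlap. In MI + UA it had 19.6 ± 4.93 CPM, a log2 fold change of -0.36 against MI (edgeR adjusted p = 1.00), and the groups overlapped. Cacnb3, a beta subunit, had a log2 fold change of 1.34 (adjusted p = 0.0146) on 5 to 10 counts per Sham library. Rrad, which encodes a small GTP-binding protein that inhibits L-type channels, dropped by 0.59 on the log2 scale (adjusted p = 0.0131), from 37.3 ± 3.99 CPM to 24.5 ± 6.55 CPM (SD, n = 4 each).

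Inside the SR and at its junctions, 3 of 17 luminal and dyad genes tested were called lower and 1 higher. Hrc, a histidine-rich calcium-binding protein of the SR lumen, went from 212 ± 7.80 CPM in Sham to 131 ± 18.8 CPM in MI (SD, n = 4 each), a log2 fold change of -0.69 (edgeR adjusted p = 0.000157). Tmem38a and Tmem38b, the channels that let potassium balance the charge of released calcium, fell by 0.54 (adjusted p = 0.000555) and by 0.43 (adjusted p = 0.0203) on the log2 scale. Of 6 other pumps and release channels only Itpr1, the inositol trisphosphate receptor, was called, and it rose, with a log2 fold change of 0.30 (adjusted p = 0.0245). Fkbp1a, which binds ryanodine receptors, was not called in MI versus Sham and had a log2 fold change of -0.20 in MI + UA versus MI (edgeR adjusted p = 1.00).

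Of 10 genes for sarcolemmal exchange and the sodium pump, which sets the gradient that drives the exchanger, 1 was called lower and 1 higher. Atp1b1, the beta subunit of the sodium pump, had a log2 fold change of -0.33 between MI and Sham (edgeR adjusted p = 0.00785), and in MI + UA versus MI it had a log2 fold change of 0.17 (edgeR adjusted p = 1.00). Atp2b4, a calcium pump of the cell membrane, had a log2 fold change of 0.30 (adjusted p = 0.0478).

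Among calmodulin, kinases and phosphatases 3 of 18 were called lower and 0 higher. Prkaca, the catalytic subunit of protein kinase A, fell by 0.40 (edgeR adjusted p = 0.00144) and Ppp1r3a, a targeting subunit of protein phosphatase 1, by 0.49 (adjusted p = 0.00174) on the log2 scale. Akap6, which anchors protein kinase A near the release site, fell by 0.31 (adjusted p = 0.0346). Of 9 genes for mitochondrial calcium uptake and release 1 was called, Smdt1, a small subunit of the uniporter complex, which fell by 0.54 (adjusted p = 0.0302). In MI + UA versus MI, Smdt1 had a log2 fold change of 0.33 (edgeR adjusted p = 1.00) and overlapping groups. Across the 70 genes, 0 were called in MI + UA versus MI by edgeR and 4 had an unadjusted p under 0.05, beside 3.79% of all genes tested, namely Cacna1g, Fkbp1a, Atp1b1 and Smdt1.

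**Figure D5:**
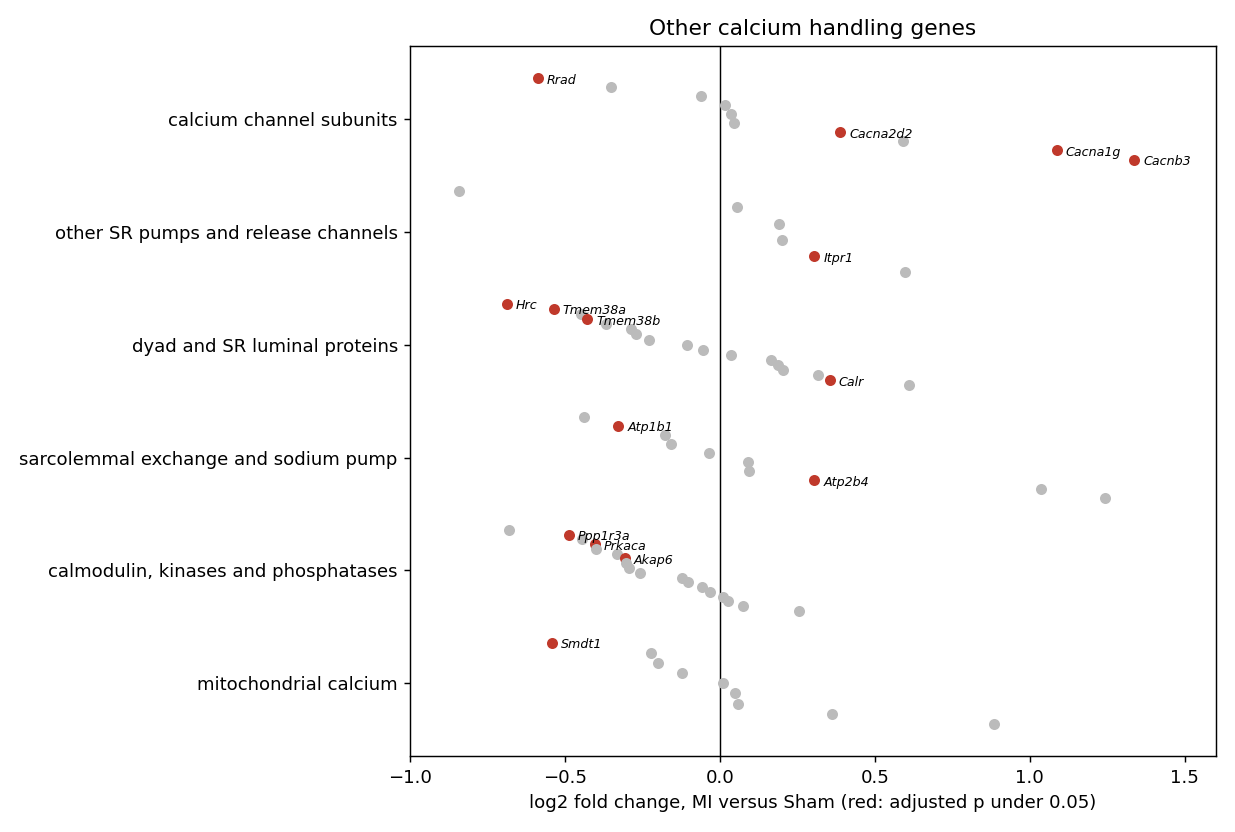
Log2 fold change in MI versus Sham of the 70 further calcium handling genes tested, one row per functional list, with the called genes in red and labelled. The 6 called higher include Cacna1g and Itpr1 and the 9 called lower include Hrc, Tmem38a and Prkaca.

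To see which genes ran most like the pump, each gene's log2 CPM was centred and divided by its SD over the 12 rats, and the root mean square difference from Atp2a2 was taken for 10929 genes. The smallest differences were those of Clpx (0.209), which encodes a mitochondrial protein unfoldase, of Tcp11l2 (0.214) and of Lpl (0.224), the lipase of the capillary surface. Trdn came 12th among all genes (0.294), Ryr2 136th and Cacna1c 427th. Casq2 stood at 866, Jph2 at 1036, Camk2d at 1106 and Slc8a1 at 3432. These ranks describe 12 libraries that share the same 3 groups. For Sln the nearest genes were Dnajc16 (0.516), Gli4 (0.536) and Rhobtb1 (0.544), a ranking that rests on 0 to 10 Sln counts per library.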

How the data were processed

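RNA of 20 µm sections was sequenced by the authors as strand-specific paired-end libraries after depletion of ribosomal RNA (the labels name polyA RNA). Per the labels, reads were mapped to mRatBN7.2 with STAR 2.6.1c and counted with HTSeq; the deposited values are counts per Ensembl gene, without normalization, and 7162 of 30560 rows have no symbol. The 5 summary lines of htseq-count were kept out of library sizes. The labels mention 1 further MI + UA sample, which was not analysed here. Genes whose counts over all libraries came to 10 or more entered edgeR 4.0.16 in R 4.3.3 (TMM, quasi-likelihood test, 3 groups in one fit, 9 residual degrees of freedom), with Benjamini-Hochberg adjustment over all 18182. Per-rat CPM use TMM library sizes, and log2 CPM a prior count of 1. SE is the log2 fold change divided by the root of the F statistic. Intervals of fold changes are 95%. The script was tested on simulated counts. DESeq2 1.42.0, other scalings, filters and groupings were tried as alternatives. Group labels came from the sample titles. All 10 members were named, and of each further list up to 3 genes with the smallest adjusted p in MI versus Sham, up to 2 with an unadjusted p under 0.05 in MI + UA versus MI, and the genes nearest to Atp2a2 and to Sln. Members and lists were chosen with earlier results of these data known. No batch is given in the sources used here. 1 gene of the further lists is not reported here.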

Additional observations from a re-analysis of the deposited data

Results flagged for a closer look

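Of 69 groups of 4 rats examined, 6 held a rat whose gap to the nearest other rat, divided by the range of the group, was past Dixon's critical ratio for 4 samples, where chance gives about 1 in 20 groups, or 3.5 of 69. Trdn in MI had rat 61 farthest below the others (ratio 0.8294 on log2 CPM, 63.2 CPM against 71.8 to 73.7 CPM). Jph2 in MI + UA had rat 58 lowest (ratio 0.850, 157 CPM against 198 to 206 CPM). The same rat 58 had the most Casq2 reads relative to Ryr2 reads of its group (ratio 0.918, 26.5 per 100 against 20.4 to 20.9). It also had the lowest share of counted reads on genes (ratio 0.882, 46.2%). Among the MI rats, rat 89 had the most Trdn reads relative to Ryr2 reads (ratio 0.868, 4.38 per 100 against 3.65 to 3.73). Rat 66, of MI + UA by its label, had the lowest mean log2 CPM of the smooth muscle markers in its group (ratio 0.868).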

How the results depend on the processing

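In MI versus Sham, Atp2a2, Ryr2, Trdn and Jph2 were called lower by edgeR in all 12 fits that left out 1 rat. For Jph2 the largest edgeR adjusted p of these fits was 0.0485, near the threshold. The calcium cycling genes called numbered 4 to 6 in those fits, with Casq2 added without MI rat 57. They numbered 4 to 5 in MI + UA versus Sham and 0 in MI + UA versus MI. Over all genes, leaving out 1 rat gave 1468 to 2182 genes in MI versus Sham, 1155 to 1895 in MI + UA versus Sham and 0 to 1 in MI + UA versus MI, and 8 to 17 further calcium handling genes. With no filter on low counts 3 genes were called in MI + UA versus MI, none of them a calcium cycling gene. DESeq2 called 6 calcium cycling genes in both comparisons with Sham, beside 2184 genes in all in MI versus Sham (1122 lower) and 1921 in MI + UA versus Sham (926 lower).

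Scaling by the cardiomyocyte markers changed the calls most. By their summed counts it gave 3 calcium cycling genes in MI versus Sham and 1 in MI + UA versus Sham, all higher, with 7572 and 5452 genes in all and 35 further calcium handling genes. By their geometric mean, chosen after seeing the data, it gave 3 and 2, with 7411 and 5819 genes and 35 again. Of the genes called in MI versus Sham, 51.3% were higher with TMM and 99.5% with the summed markers. The median log2 fold change of all genes became 0.51 and 0.48 in MI versus Sham by construction of these scalings. Log2 fold changes that changed sign under the summed and the geometric scaling were, in MI versus Sham, those of Ryr2 (0.071 and 0.042), Casq2 (0.25 and 0.22), Slc8a1 (0.44 and 0.41), Cacna1c (0.17 and 0.14), Camk2d (0.38 and 0.35) and, by the sum only, Jph2 (0.020). In MI + UA versus Sham they were those of Atp2a2 (0.024 and 0.019), Ryr2 (0.028 and 0.021), Casq2 (0.19 and 0.19), Slc8a1 (0.25 and 0.25), Cacna1c (0.059 and 0.049) and Camk2d (0.33 and 0.32). In MI + UA versus MI they were those of Ryr2 (-0.042 and -0.021), Casq2 (-0.058 and -0.035), Jph2 (-0.052 and -0.036) and Camk2d (-0.049 and -0.030).

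With rat 66 counted in MI the same 5 genes were called lower in both comparisons with Sham, beside 1913 genes in all (927 lower) for MI and 1830 (794 lower) for MI + UA, and in MI + UA versus MI the log2 fold change became -0.041 for Atp2a2, -0.068 for Ryr2, -0.022 for Casq2, -0.080 for Trdn and -0.0030 for Jph2. Leaving out 1 rat also turned the sign of uncalled differences. In MI versus Sham Slc8a1 ran from -0.10 to 0.0092. In MI + UA versus MI the range was -0.022 to 0.086 for Ryr2, -0.70 to 0.83 for Sln, -0.024 to 0.074 for Casq2, -0.085 to 0.033 for Cacna1c and -0.055 to 0.11 for Jph2. The cause of these changes was not tested.

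No paired analysis was possible because each rat number occurs in 1 group only. Limits are the 4 rats per group, the mixed cell types of a section, the few Sln counts, and fixed tissue, in which about as many counted reads fell outside genes as on them.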
